A study of Homo sapiens with 6 samples.

Results

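The genes described here are those that make, store, take up and break down catecholamines: TH, DDC, DBH, PNMT, GCH1, SLC18A1, SLC18A2, SLC6A2 and MAOA. They were chosen by name, with earlier results of these data known, and matched through GENCODE 29. All 9 are among the 32434 gene IDs of the table. RNA was sequenced from SK-N-BE(2), a human neuroblastoma cell line, in 3 libraries with a short hairpin RNA against the zinc-finger factor gene MYT1 (shMYT1) and 3 libraries with a control hairpin (shNC). The protocol describes lentiviral infection for 24 h, then 48 h in puromycin, and calls the result a stable knockdown, while the genotype label of shMYT1 says knockout and that of shNC says control. No label names the hairpin sequences, a clone, or separate cultures, so p-values measure only the spread between these libraries. The series asks how MYT1 relates to differentiation and retinoic acid signalling of neuroblastoma cells, and catecholamine genes are part of what marks sympathetic differentiation.

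Catecholamines are made from tyrosine. TH, tyrosine hydroxylase, takes the rate-limiting step with the cofactor tetrahydrobiopterin, whose own synthesis starts with GCH1. DDC then makes dopamine, DBH turns dopamine into noradrenaline inside vesicles, and PNMT makes adrenaline, the last step, which noradrenergic cells lack. SLC18A1 (VMAT1) and SLC18A2 (VMAT2) load the amines into vesicles. SLC6A2, the noradrenaline transporter, brings released noradrenaline back into the cell and is also the route by which the radiotracer MIBG enters neuroblastoma cells. MAOA, monoamine oxidase A, breaks cytosolic amines down.

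Levels are the authors' deposited FPKM, fragments scaled by exon length and library depth. The deposited values correspond to 18.2 to 20.3 M fragments in shMYT1 libraries and 21.1 to 21.7 M in shNC libraries. MYT1 itself (ENSG00000196132) had 4.198, 4.13 and 4.36 FPKM in shMYT1 libraries, against 5.73, 5.12 and 5.18 FPKM in shNC libraries, a difference of -20.8% in the means (log2 fold change -0.28, SE 0.05, limma adjusted p = 0.0102). MYT1 RNA was thus still present at most of its shNC level. Of 8 sympathoadrenal and neuroblastoma markers all were tested, and the highest, PHOX2A, averaged 371 FPKM over the 6 libraries. Their summed level was 1313 to 1341 FPKM in shMYT1 libraries and 1359 to 1450 FPKM in shNC libraries, with 3 genes up and 1 down. Markers of other amine neurons were mixed in level. The serotonergic markers in the table summed to 14.9 to 16.5 FPKM in shMYT1 libraries and 13.9 to 16.9 FPKM in shNC libraries, nearly all of it from the factor gene FEV, while TPH1 and SLC6A4, the enzyme and transporter of serotonin, averaged 0.149 and 0.0203 FPKM. The midbrain dopaminergic markers summed to 1.13 to 1.57 FPKM in shMYT1 libraries and 1.35 to 1.74 FPKM in shNC libraries, mostly NR4A2 at 1.27 FPKM, with the dopamine transporter gene SLC6A3 at 0.039 FPKM. The adrenal cortex markers in the table (3 of 7) summed to 0.593 to 0.779 FPKM in shMYT1 libraries and 0.623 to 0.725 FPKM in shNC libraries. The summed level of 7 fibroblast markers did move with the hairpin, at 113 to 116 FPKM in shMYT1 libraries and 161 to 165 FPKM in shNC libraries (2 of 6 tested genes up, 3 down). The 4 Schwann cell markers in the table summed to 2.55 to 3.27 FPKM in shMYT1 libraries and 2.10 to 2.25 FPKM in shNC libraries, with 0 of 2 tested genes passing. The part of these differences in the results below was not tested.

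The amine-handling genes SLC18A1, SLC6A2 and DBH rose in shMYT1 cells, TH and MAOA fell, and DDC, GCH1 and SLC18A2 did not pass the test. PNMT was too low to be tested. The test was limma on log2(FPKM + 1) over 14106 genes whose mean reached 1 FPKM, with Benjamini-Hochberg adjustment over all of them and a threshold of 0.05. Thus 3 of the 8 tested members rose and 2 fell, where 11.9% of all tested genes rose and 12.3% fell, 24.2% in either direction. SLC18A1, counted among the rises, met the 1 FPKM filter only through its shMYT1 libraries. The groups did not overlap in 6 of the 8, against 42.3% of all tested genes. The median log2 fold change of the 8 was 0.03, beside -0.005 over all tested genes, and their median absolute log2 fold change was 0.292, beside 0.109. Since the members were chosen with earlier results of these data known, these comparisons are description and not a test of the set. In bulk RNA, fewer cells expressing a gene and less RNA per cell cannot be told apart.

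**Figure D1:**
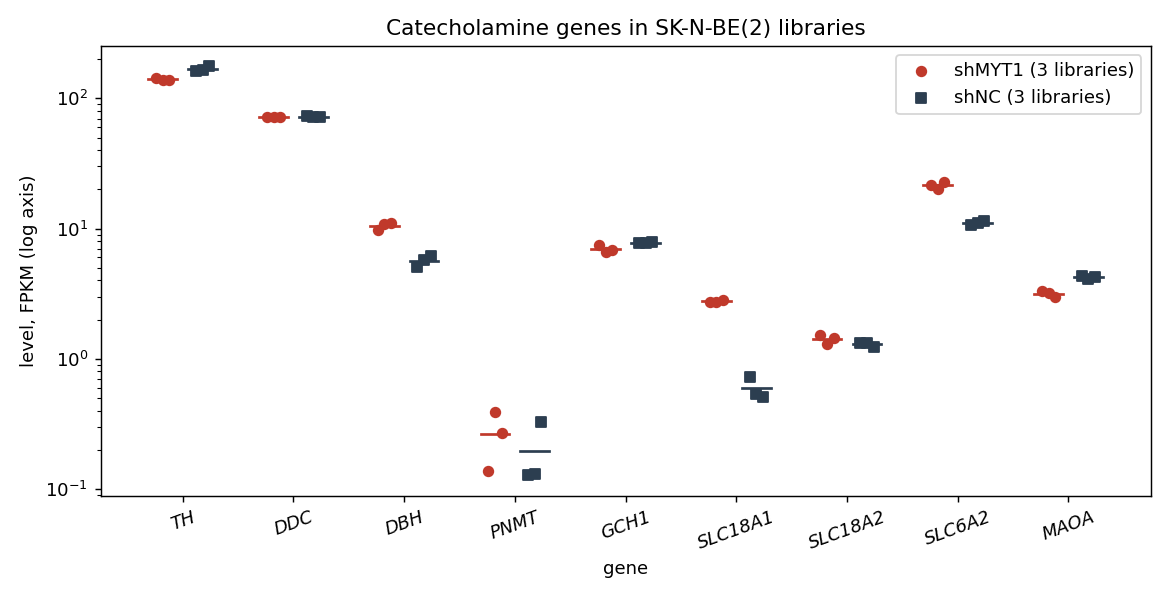
Level of each of the 9 genes in every library, as FPKM on a log axis, with shMYT1 libraries (circles) left of shNC libraries (squares) and a line at each mean. SLC18A1 lies at 2.72 to 2.82 FPKM in shMYT1 libraries and 0.512 to 0.726 FPKM in shNC libraries, while DDC is level at about 72 FPKM in both groups.

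The synthesis genes were led by TH (ENSG00000180176, chromosome 11, 2163929 to 2171877, minus strand, hg38). TH had 144, 140 and 139 FPKM in shMYT1 libraries, against 164, 165 and 176 FPKM in shNC libraries. The groups did not overlap, and TH was lower in shMYT1, yet it remained the most abundant of the 9 genes in both groups and its mean exceeded that of 98.7% of tested genes. TH fell by 16.4% in the means (log2 fold change -0.26, SE 0.04, 95% interval -0.34 to -0.17, limma adjusted p = 0.00340). These levels rest on 7980 to 9305 fragments in shMYT1 libraries and 11228 to 11979 in shNC libraries.

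DDC, aromatic amino acid decarboxylase, is the next enzyme (ENSG00000132437, chromosome 7, 50458436 to 50565457, minus strand, hg38). It had 72.6, 72.0 and 71.8 FPKM in shMYT1 libraries, against 72.6, 72.4 and 72.6 FPKM in shNC libraries. The groups overlapped and the values of all 6 libraries lay within 1 FPKM of each other. The log2 fold change of DDC was -0.01 (95% interval -0.06 to 0.04, limma adjusted p = 0.819), an interval that leaves out any change as large as that of TH. Of DDC's 3136 exon bases, 114 are shared with the antisense gene DDC-AS1.

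DBH, the copper enzyme of the vesicle, went the other way from TH (ENSG00000123454, chromosome 9, 133635348 to 133659344, plus strand, hg38). DBH had 9.70, 10.8 and 11.0 FPKM in shMYT1 libraries, against 5.05, 5.69 and 6.11 FPKM in shNC libraries. All shMYT1 libraries lay above all shNC libraries. The mean level was 10.5 ± 0.68 FPKM in shMYT1 and 5.62 ± 0.53 FPKM in shNC (SD, n = 3 each), a 1.86-fold rise (log2 fold change 0.80, SE 0.07, 95% interval 0.63 to 0.97, limma adjusted p = 0.000730). Of DBH's 3776 exon bases in GENCODE 29, 118 are shared with DBH-AS1 in antisense. The deposited DBH values were whole at a length of 2764 bases, so the shared bases may not have been counted for DBH. Whether counting used strand is not given in the sources used here. DBH-AS1 was at 1.52 FPKM in shMYT1 and 1.06 FPKM in shNC (means, limma adjusted p = 0.110).

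PNMT (ENSG00000141744, chromosome 17, 39667981 to 39670475, plus strand, hg38) was near the detection floor. It had 0.138, 0.388 and 0.270 FPKM in shMYT1 libraries, against 0.128, 0.131 and 0.327 FPKM in shNC libraries, which is 4 to 10 fragments per library. The groups overlapped. A count of 3 fragments would give 0.0959 to 0.116 FPKM on this gene, for counting error only. In a fit with no filter on low values the log2 fold change was 0.08 (95% interval -0.17 to 0.33, limma adjusted p = 0.717), so no change in PNMT was detectable at this depth.

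GCH1, GTP cyclohydrolase 1, opens tetrahydrobiopterin synthesis (ENSG00000131979, chromosome 14, 54842008 to 54902852, minus strand, hg38). It had 7.52, 6.63 and 6.85 FPKM in shMYT1 libraries, against 7.79, 7.70 and 7.84 FPKM in shNC libraries. The shMYT1 libraries lay below the shNC libraries without overlap, but the difference did not pass the test (log2 fold change -0.14, 95% interval -0.25 to -0.02, limma adjusted p = 0.0881). Without shMYT1 replicate 1, the highest of its group, it did (log2 fold change -0.18, limma adjusted p = 0.0378).

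The vesicle loaders are paralogs and differed in their response. SLC18A1 (ENSG00000036565, chromosome 8, 20144855 to 20183206, minus strand, hg38) is the form known best from chromaffin and other endocrine cells. It had 2.73, 2.72 and 2.82 FPKM in shMYT1 libraries, against 0.726, 0.536 and 0.512 FPKM in shNC libraries. All shMYT1 libraries lay well above all shNC libraries, with 188 to 213 fragments per shMYT1 library and 42 to 61 per shNC library. The means stood 4.66-fold apart. The added 1 FPKM shrinks the fold change of a gene this low, so that on log2(FPKM + 1) it was 1.24 (SE 0.08, 95% interval 1.05 to 1.43, limma adjusted p = 0.000236), rank 19 among the rises of all tested genes. Its shNC mean of 0.592 FPKM is under the filter of 1 FPKM, so SLC18A1 was tested only through its level in shMYT1 libraries. With no filter on low values its call stood (limma adjusted p = 0.00161). On fragments recovered from the FPKM, limma-voom gave 2.22 (95% interval 1.88 to 2.56, adjusted p = 3.64e-11), a fold of 3.69 to 5.91.

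SLC18A2 (ENSG00000165646, chromosome 10, 117241073 to 117279430, plus strand, hg38) is the form known best from neurons. It had 1.52, 1.29 and 1.45 FPKM in shMYT1 libraries, against 1.33, 1.33 and 1.24 FPKM in shNC libraries. The groups overlapped, and the log2 fold change of 0.07 did not pass (95% interval -0.11 to 0.25, limma adjusted p = 0.535). On recovered fragments the interval of the fold was 0.901 to 1.33. Of SLC18A2's 4145 exon bases, 2157 are shared with PDZD8, 105 with AL731557.1 and 64 with AL391988.1, all on the opposite strand, so its level is uncertain where fragments there could not be assigned. PDZD8 was at 6.27 FPKM in shMYT1 and 6.91 FPKM in shNC (means, limma adjusted p = 0.137).

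Within a library the scaling of that library cancels, so ratios between genes were also compared. SLC18A1 over SLC18A2 was 1.80, 2.11 and 1.95 in shMYT1 libraries, against 0.545, 0.404 and 0.414 in shNC libraries. By FPKM, SLC18A1 was therefore the higher of the pair in every shMYT1 library and the lower in every shNC library, a 4.33-fold difference in the ratio. Which of the pair is higher depends on the level of SLC18A2, uncertain since 2157 of its 4145 exon bases are shared with PDZD8. DBH over TH was 0.0675, 0.0771 and 0.0791 in shMYT1 libraries, against 0.0309, 0.0345 and 0.0347 in shNC libraries, a 2.23-fold difference. SLC6A2 over MAOA was 6.46, 6.31 and 7.64 in shMYT1 libraries, against 2.45, 2.69 and 2.65 in shNC libraries, a 2.61-fold difference. Each of the 3 ratios had p = 0.1 in the exact two-sided permutation test, the smallest that 3 libraries against 3 allow, and the pairs were chosen with the members' results known. DDC over TH, a ratio chosen after its values were seen, was 0.513 ± 0.0072 in shMYT1 and 0.432 ± 0.0173 in shNC (SD, n = 3 each; exact permutation p = 0.1).

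**Figure D2:**
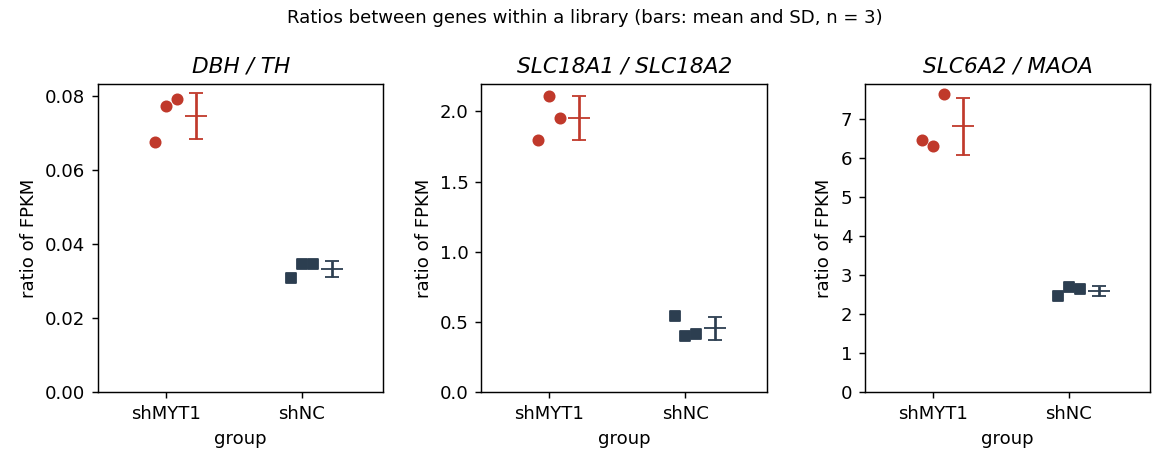
Ratio of FPKM between 2 genes of the same library, with 3 shMYT1 libraries (circles) left of 3 shNC libraries (squares) and the mean with its SD beside them. In all 3 panels every shMYT1 library lies above every shNC library, by 2.23-fold for DBH over TH, 4.33-fold for SLC18A1 over SLC18A2 and 2.61-fold for SLC6A2 over MAOA.

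SLC6A2 (ENSG00000103546, chromosome 16, 55655604 to 55706192, plus strand, hg38) was the most abundant transporter of the 9 genes. It had 21.4, 20.3 and 22.8 FPKM in shMYT1 libraries, against 10.6, 11.0 and 11.4 FPKM in shNC libraries. Every shMYT1 library lay far above the shNC range. The mean was 21.5 ± 1.26 FPKM in shMYT1 and 11.0 ± 0.36 FPKM in shNC (SD, n = 3 each), a 1.96-fold rise (log2 fold change 0.91, SE 0.05, 95% interval 0.79 to 1.02, limma adjusted p = 0.000122). This was rank 58 among the rises of all tested genes, and DBH was rank 93. The overlapping same-strand gene AC136621.1, which GENCODE lists as still to be checked by experiment and which shares 977 of SLC6A2's 5463 exon bases, moved with it: 13.0 FPKM in shMYT1 and 6.89 FPKM in shNC (means, log2 fold change 0.83, limma adjusted p = 0.000208). Fragments in the shared bases cannot be assigned to either gene with certainty.

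MAOA sits on the outer mitochondrial membrane and deaminates noradrenaline and serotonin (ENSG00000189221, chromosome X, 43654907 to 43746824, plus strand, hg38). It had 3.32, 3.21 and 2.98 FPKM in shMYT1 libraries, against 4.34, 4.08 and 4.28 FPKM in shNC libraries. The highest shMYT1 value was under the lowest shNC value. MAOA fell by 25.1% in the means (log2 fold change -0.33, SE 0.05, 95% interval -0.45 to -0.21, limma adjusted p = 0.00522), with 293 to 366 fragments in shMYT1 libraries and 473 to 515 in shNC libraries. Of the 5 members that passed, the falls of TH and MAOA were thus smaller in size than the 3 rises.

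**Figure D3:**
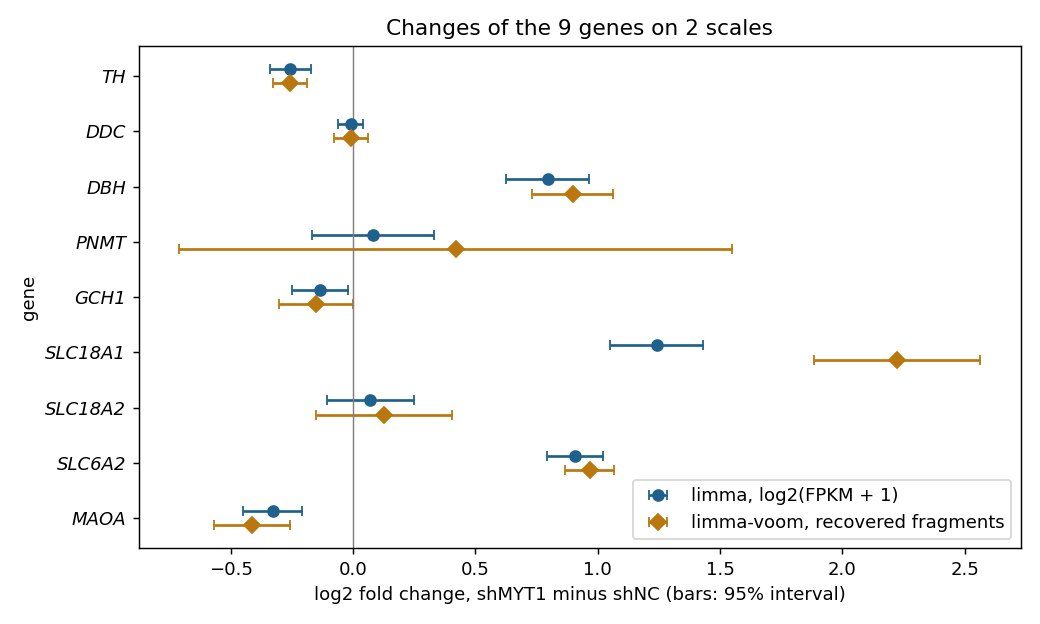
Log2 fold change of each gene, shMYT1 minus shNC, with its 95% interval, from limma on log2(FPKM + 1) (circles) and from limma-voom on recovered fragments (diamonds). The scales differ most for the low gene SLC18A1 (1.24 and 2.22), and PNMT has the widest interval.

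The order of the FPKM levels, which are per length, differed between the groups at 2 places. The place of SLC18A2 is uncertain because of the exon bases it shares with PDZD8. In shMYT1 libraries it was TH, DDC, SLC6A2, DBH, GCH1, MAOA, SLC18A1, SLC18A2 and PNMT, from 141 to 0.265 FPKM in the means. In shNC libraries it was TH, DDC, SLC6A2, GCH1, DBH, MAOA, SLC18A2, SLC18A1 and PNMT, from 168 to 0.195 FPKM. No gene overlapped the next in the order within either group. DBH stood above GCH1 in every shMYT1 library and below it in every shNC library, with a ratio of 1.504 ± 0.19 in shMYT1 and 0.722 ± 0.067 in shNC (SD, n = 3 each), a ratio also chosen after its values were seen.

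Promoter sequences were matched for 4 of the 9 genes (DDC, DBH, SLC18A2 and MAOA) in a RefSeq table of GRCh38.p14. The 250 bases before the annotated start are shown for DBH, which rose, SLC18A2, which did not pass, and MAOA, which fell, so that members with different behaviour can be compared. They are chr9:133636113-133636362 (plus strand), chr10:117240864-117241113 (plus strand) and chrX:43656049-43656298 (plus strand). The starts are those of the RefSeq table. The DBH and MAOA windows therefore lie inside the GENCODE spans given above, and the SLC18A2 window runs into the start of its span. Capitals mark matches, on either strand, to TGACGTCA (the cAMP response element), TGACG (its first letters, added after the sequences were seen, and contained in it), AAGTT (a core bound by MYT1), CANNTG (E-box), GATAA and AGGTCA (nuclear receptor half-site).
DBH: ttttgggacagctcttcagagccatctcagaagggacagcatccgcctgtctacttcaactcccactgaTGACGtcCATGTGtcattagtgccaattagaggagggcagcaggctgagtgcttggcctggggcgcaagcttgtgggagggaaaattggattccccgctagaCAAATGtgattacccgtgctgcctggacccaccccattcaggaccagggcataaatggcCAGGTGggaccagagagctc
SLC18A2: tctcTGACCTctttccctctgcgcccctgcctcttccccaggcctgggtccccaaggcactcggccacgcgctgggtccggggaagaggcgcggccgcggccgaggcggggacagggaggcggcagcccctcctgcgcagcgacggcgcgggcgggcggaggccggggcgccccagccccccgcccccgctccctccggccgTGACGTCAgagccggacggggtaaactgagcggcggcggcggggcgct
MAOA: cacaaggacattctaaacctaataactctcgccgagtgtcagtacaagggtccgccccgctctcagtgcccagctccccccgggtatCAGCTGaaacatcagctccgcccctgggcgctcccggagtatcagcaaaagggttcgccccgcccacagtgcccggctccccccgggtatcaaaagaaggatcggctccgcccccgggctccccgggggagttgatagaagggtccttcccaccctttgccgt

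SLC18A2 holds the full TGACGTCA, at 48 to 41 bases before the start, which 1.65% of 35116 promoters hold. DBH holds TGACG at 181 to 177 bases before its start, present in 21.2% of promoters, and 3 E-boxes, of which 61.8% of promoters hold at least 1. MAOA holds 1 E-box, and its window is 63.2% G or C, beside 55.6% in DBH and 78.8% in SLC18A2. AAGTT, held by 30.3% of promoters, has no match in these 3 windows and 1 match before the upstream start of DDC. AGGTCA, held by 12.1% of promoters, has 1 match in SLC18A2 and 1 before the upstream start of DDC, and GATAA, held by 20.4%, has none in the 4 genes. A match describes letters in this window and is not evidence of binding.

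Of 7 tested tetrahydrobiopterin genes, GCH1 among them, 0 rose and 1 fell (median log2 fold change -0.07). PTS, SPR, PCBD1, PCBD2 and QDPR did not pass. Without shMYT1 replicate 1 the count was 0 up and 2 down, and without shNC replicate 3 it was 1 up and 1 down. Of 7 genes of aromatic hydroxylation and amino acid supply in the table, 4 were under the filter. The 3 tested, TH among them, all fell, where 12.3% of all tested genes fell. With no filter on low values 0 of the 7 rose and 2 fell. SLC7A5 and SLC3A2, the chains of a transporter that brings tyrosine into cells, had means of 82.0 and 37.7 FPKM in shMYT1, against 91.7 and 43.4 FPKM in shNC (limma adjusted p = 0.0167 and 0.0352). The SLC7A5 call was lost without shMYT1 replicate 1 (adjusted p = 0.0548) and without shNC replicate 2 (adjusted p = 0.0511). That of SLC3A2 was lost when any library other than shNC replicate 2 was left out (adjusted p 0.0567 to 0.103), so that without shMYT1 replicate 1 only TH of this list passed.

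DBH needs copper and ascorbate. Of 5 tested genes of that supply 1 rose and 2 fell, where 11.9% of all tested genes rose and 12.3% fell. CYB561, the vesicle membrane cytochrome that returns electrons to ascorbate, was at 14.5 FPKM in shMYT1 and 12.7 FPKM in shNC (means, log2 fold change 0.17, limma adjusted p = 0.0325). Its call was lost without shMYT1 replicate 1 or 3 and without shNC replicate 1 or 2 (adjusted p 0.0846 to 0.102). It was also lost with libraries rescaled to a common FPKM total (adjusted p = 0.0563), with no variance trend (0.05005) and with no filter on low values (0.0691), which each left 0 up and 2 down in this list. SLC23A2, an ascorbate transporter, fell to 9.09 FPKM in shMYT1, against 11.2 FPKM in shNC (limma adjusted p = 0.00190). SLC31A1, the copper importer, was at 15.0 FPKM in shMYT1 and 16.5 FPKM in shNC (limma adjusted p = 0.0249), a call lost when any library other than shNC replicate 3 was left out (adjusted p 0.0535 to 0.0937). Without shMYT1 replicate 3, shNC replicate 1 or shNC replicate 2 the count for this supply was 0 up and 1 down. Without shMYT1 replicate 1 or 2 it was 1 up and 1 down. In limma-voom and after subtraction of the regional running median it was 2 up and 2 down. Of 18 tested subunit and accessory genes of the proton pump that powers vesicle loading, 3 rose, 3 fell and 12 did not pass. Their median log2 fold change was 0.03, and 24.2% of all tested genes passed in either direction. ATP6V1G2 was at 4.88 FPKM in shMYT1 and 3.71 FPKM in shNC (means, limma adjusted p = 0.00941). ATP6V0C was at 3.41 FPKM in shMYT1 and 2.24 FPKM in shNC (limma adjusted p = 0.0181, lost without shMYT1 replicate 2 or 3 and without shNC replicate 1 or 2, at 0.0530 to 0.0616). ATP6V1C1 was at 8.41 FPKM in shMYT1 and 10.2 FPKM in shNC (limma adjusted p = 0.0204, lost without shMYT1 replicate 1 or 3 and without shNC replicate 1 or 2, at 0.0588 to 0.0722), and its log2 fold change was -0.04 after subtraction of the regional running median (adjusted p = 0.547). The count for the pump was 1 up and 2 down without shMYT1 replicate 3, without shNC replicate 1 and with no filter on low values.

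Of 3 tested genes of other amine carriers 1 passed, SLC18B1, a polyamine carrier of the same family as the vesicle loaders. SLC18B1 fell to 4.21 FPKM in shMYT1, against 7.11 FPKM in shNC (means, log2 fold change -0.64, limma adjusted p = 0.00311). SLC18A3, the vesicular acetylcholine transporter, was at 6.33 FPKM in shMYT1 and 6.35 FPKM in shNC, and SLC29A4, a low-affinity monoamine transporter, at 18.3 FPKM in shMYT1 and 18.2 FPKM in shNC. Of 7 tested breakdown genes MAOA fell and the other 6 did not pass; in limma-voom and after subtraction of the regional running median 1 rose and 1 fell. MAOB averaged at most 0.0327 FPKM in a group.

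Of 14 listed catecholamine receptor genes 10 were in the table, and 7 of these were under the filter. The 3 tested genes all passed, 2 up and 1 down, where 24.2% of all tested genes passed. ADRA2C, a receptor through which noradrenaline limits its own release, rose to 3.87 FPKM in shMYT1, against 1.87 FPKM in shNC (means, 2.07-fold, log2 fold change 0.76, limma adjusted p = 0.000413). Its relative ADRA2A fell to 5.48 FPKM in shMYT1, against 7.44 FPKM in shNC (log2 fold change -0.38, limma adjusted p = 0.00372). DRD2, a dopamine receptor that serves as an autoreceptor in dopamine neurons, was at 1.97 FPKM in shMYT1 and 1.36 FPKM in shNC (limma adjusted p = 0.0337), a call lost when any library other than shNC replicate 3 was left out (adjusted p 0.0613 to 0.103).

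Of 14 transcription factors known to act on catecholamine genes, 2 rose, 4 fell and 8 did not pass, with a median log2 fold change of -0.12. Among all tested genes 11.9% rose and 12.3% fell. The count was 2 up and 6 down after rescaling to a common FPKM total, after quantile normalization and in limma-voom. It was 2 up and 5 down with no variance trend or without shMYT1 replicate 3. With no filter on low values or without shMYT1 replicate 1 it was 2 up and 3 down. ISL1, a homeodomain factor of sympathetic neurons, rose to 37.3 FPKM in shMYT1, against 32.3 FPKM in shNC (means, log2 fold change 0.20, limma adjusted p = 0.00422). PHOX2A, known to drive DBH and TH, was at 367 ± 11.6 FPKM in shMYT1 and 375 ± 32.3 FPKM in shNC (SD, n = 3 each; limma adjusted p = 0.80). INSM1 and TFAP2B fell, with log2 fold changes of -0.51 and -0.40 (limma adjusted p = 0.00460 and 0.000301). HAND2 had a log2 fold change of -0.18 (limma adjusted p = 0.0159), a call lost without shMYT1 replicate 1 (adjusted p = 0.0571) and after subtraction of the regional running median (adjusted p = 0.280).

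**Figure D4:**
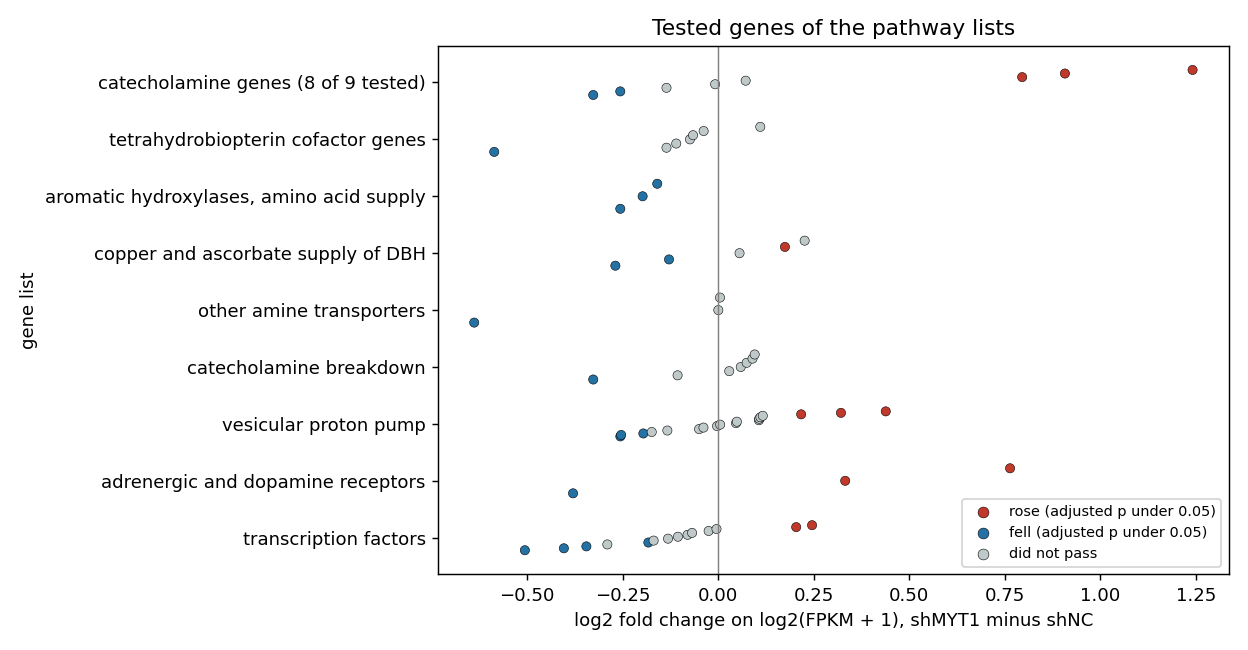
Log2 fold change on log2(FPKM + 1), shMYT1 minus shNC, of each tested gene of 9 lists of the pathway, 1 row per list and 1 point per gene, coloured by the limma call. The 3 catecholamine genes that rose are SLC18A1, SLC6A2 and DBH, at 1.24, 0.91 and 0.80.

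Members were also set beside their neighbours on the chromosome, named after their values were seen. Among the genes around SLC18A1 more fell than rose: among its 50 nearest tested genes the median log2 fold change was -0.13, 3 rose and 20 fell, and the highest value was 0.49, beside 1.24 for SLC18A1. The nearest tested genes on its sides were INTS10 (log2 fold change -0.23) and ATP6V1B2 (-0.13, limma adjusted p = 0.0528). For DBH the neighbours' median was 0.05 and the highest 1.07, and 10 rose and 1 fell. DBH-AS1 overlaps DBH, and the nearest tested gene on the lower-coordinate side, FAM163B at 49151 bases, rose by 0.64 to 27.2 FPKM in shMYT1, against 17.1 FPKM in shNC. For SLC6A2 the median was 0.01 and the highest 0.83, that of the overlapping AC136621.1, and 10 rose and 2 fell. LPCAT2, nearest on the lower-coordinate side of SLC6A2, rose by 0.54. For MAOA the median was 0.002, and 3 rose and 6 fell. The nearest tested genes on both sides of MAOA fell, CASK by 0.28 and NDP by 0.59 on the log2 scale. TH fell among neighbours with a median of 0.06, of which 9 rose and 1 fell. IGF2, the nearest tested gene on the lower-coordinate side of TH at 14326 bases, rose to 5.41 FPKM in shMYT1, against 1.55 FPKM in shNC (means, log2 fold change 1.33, limma adjusted p = 0.000120). With the running median of the 50 nearest genes subtracted, the log2 fold changes were 1.38 for SLC18A1, 0.88 for SLC6A2, 0.73 for DBH, -0.32 for TH and -0.30 for MAOA, and all 5 calls stood.

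**Figure D5:**
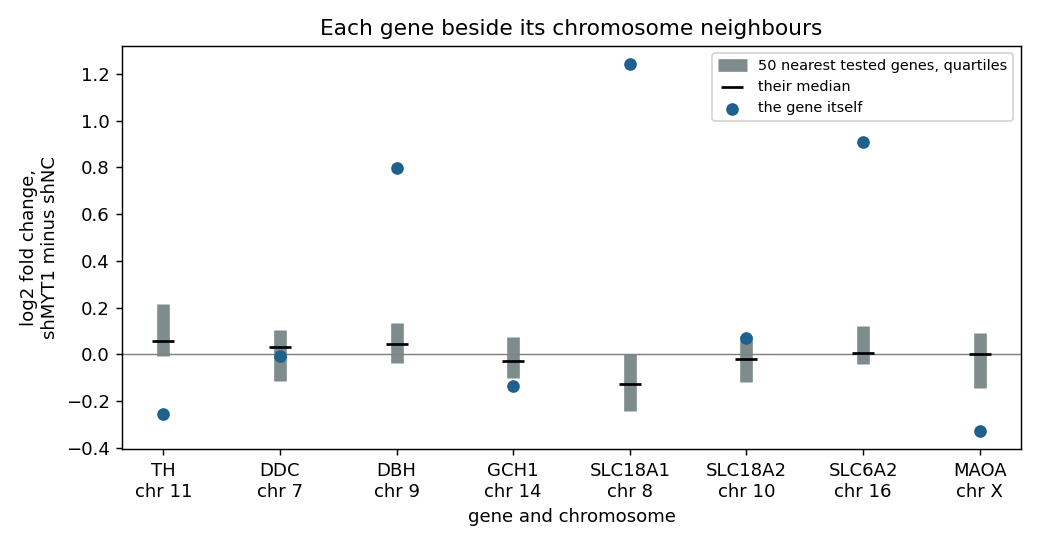
Log2 fold change of each tested member (blue points) beside its 50 nearest tested genes on the chromosome, drawn as the range between quartiles (grey bars) and the median (black lines). SLC18A1 stands at 1.24 over neighbours with a median of -0.13, and TH at -0.26 under neighbours with a median of 0.06.

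Genes with the most similar pattern over the 6 libraries were looked up for the 3 members with the largest changes, by Pearson correlation of log2(FPKM + 1) among 7261 protein-coding genes averaging 5 FPKM or more. For SLC18A1 these were IGF2R, FN1 and SCD5 (r = 0.9997, 0.9993 and 0.9992). For SLC6A2 they were GPI, PLXND1 and RIMS3 (r = 0.9994, 0.9994 and 0.9992), and for DBH they included TSC22D4 and APLP1 (r = 0.9998 and 0.9992). Between 490 and 553 genes passed r of 0.95 for each member, since the difference between the 2 groups dominates 6 points.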

How the data were processed

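RNA of 6 SK-N-BE(2) libraries was measured, 3 shMYT1 and 3 shNC. The authors deposited a single table of FPKM for all of them. Alignment and counting tools named by the submitters' processing notes are HISAT2 (2.0.5) and featureCounts (1.5.0-p3), on hg38. The gene annotation, its filters and any strand setting were not given in the sources used here.

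Symbols, exon lengths and positions came from GENCODE 29, which holds 99.6% of the 32434 IDs. Multiplying FPKM by exon length gave whole fragments, to within 0.01, for 95.4% of IDs. DBH and SLC18A2 were whole at lengths of 2764 and 4125 bases, found by search after the data were seen. The deposited FPKM were put on the log2(FPKM + 1) scale and tested by limma (3.58.1, under R 4.3.3) with a trended prior variance and no replicate block, two-sided, where the mean was at least 1 FPKM. Ratios used exact permutation tests over libraries. The fit was tested on simulated data. The members, lists and ratios were chosen with earlier results of these data known.

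The members, MYT1 and genes sharing exon bases with a member were always named. Of each other list, up to 3 passing genes with the largest absolute change were named, or the highest gene where none passed. Other genes of the lists were named after their values were seen. Some genes that the rule names are not reported here. Other settings tried changed the pseudocount, the low-value filter, scaling, variance trend, block or test, subtracted a running median over 50 neighbouring genes, and left out each library.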

Additional observations from a re-analysis of the deposited data

How the results depend on the processing

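The calls of TH, DBH, SLC18A1, SLC6A2 and MAOA stood in every alternative in which they were tested, with adjusted p of at most 0.0249, and DDC, SLC18A2 and PNMT passed in none. SLC18A1 ranged from 1.21 to 2.22 on the log2 scale, with the highest value in limma-voom. With a minimum mean of 5 FPKM, which leaves out SLC18A1, SLC18A2, MAOA and PNMT, 3 of 5 members passed. With 1 library left out, 5 to 6 members passed, the log2 fold change of GCH1 was -0.18 to -0.10, and 2038 to 3048 genes of the whole table passed, against 3420 with all libraries. The count was lowest without shNC replicate 2 (2038), shNC replicate 1 (2195) and shMYT1 replicate 1 (2196). Rescaling to a common FPKM total left the members' calls as they were, but 36.4% of passing genes were then higher in shMYT1, against 49.2% as deposited.

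Deviations from the group means correlated only weakly between same-numbered libraries, at 0.033, 0.013 and 0.043, though each library correlated best with its own number. Such correlations cannot settle whether the replicate numbers pair the libraries. With the replicate block 3381 genes and 5 members passed. The ratios kept their direction with the block (exact sign-flip p = 0.25, the smallest possible). Of 37 genes named beside the members, 9 lost a call in some alternative, 2 gained one and 0 had a call in one direction turn to the other. Without passing in either setting, ATP6V1B2 (0.01) and PHOX2A (0.03) changed sign after subtraction of the running median, and PHOX2A (0.04) also without shNC replicate 3. Keeping all low genes in the fit ended the calls of SLC3A2, CYB561, ATP6V0C, ATP6V1C1, DRD2 and HAND2, and leaving out the variance trend ended those of SLC3A2 and CYB561. Depth limits PNMT most.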
